A study of Homo sapiens with 8 samples.

Results

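C15orf48 and NDUFA4 are paralogous human genes, and both were followed here through a single-cell RNA-seq experiment on HMLE cells, an immortalised human mammary epithelial cell line. They are 2 of the 36601 genes in the deposited matrices. C15orf48 was chosen by its measured level, which differed widely between the multiplexed cultures, and NDUFA4 because it is the paralogue that C15orf48 can stand in for, so the levels by culture are a description and carry no test. The study followed the epithelial-to-mesenchymal transition that TGF-β induces in these cells, with and without pyridostatin, a small molecule that binds and stabilises G-quadruplex DNA. Cultures were marked with barcoded oligonucleotides named SBO01 to SBO12, pooled, and loaded as 4 libraries of 5′ mRNA, each with a matching barcode library. The labels do not say which barcode had which treatment or time, so each barcode population is described by its name and no treated group is set against an untreated one. The pool with SBO01 to SBO06 gave libraries 1 and 2 and the pool with SBO07 to SBO12 gave libraries 3 and 4, so every population was seen in 2 libraries of the same pool, and p-values measure the spread between loads, which may be technical.

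NDUFA4 is a small subunit of cytochrome c oxidase, complex IV of the respiratory chain, although its name places it in complex I. C15orf48 (also NMES1 or MOCCI) encodes a paralogous mitochondrial protein that can take the place of NDUFA4 in complex IV in inflamed cells, and its gene is a known target of NF-κB. The same transcript carries the hairpin of the microRNA miR-147b in its 3′ UTR, and this microRNA is known to target NDUFA4. In the GENCODE 29 annotation of GRCh38, C15orf48 lies at chr15:45430529-45448761 on the plus strand, with the hairpin at chr15:45433050-45433129, and NDUFA4 lies at chr7:10931951-10940256 on the minus strand.

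The microRNA and the site in NDUFA4 are shown because they are the sequence link between the genes. Capitals mark the seed (bases 2 to 8) in the microRNA and the 7 bases complementary to it in the site. The mature microRNA lies at chr15:45433098-45433118 (plus strand, RefSeq, GRCh38.p14) and the site at chr7:10933572-10933594 (minus strand, GRCh38), where the seed match starts at base 56 of the 1685 bases of the annotated 3′ UTR of NDUFA4.
hsa-miR-147b-3p: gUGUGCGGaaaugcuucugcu
NDUFA4 site: tccagaagccacatCCGCACAat
Among 2370 mature human microRNAs in the RefSeq table, 1 (miR-147b-3p itself) has this seed. The libraries count polyadenylated transcripts from their 5′ ends, so the mature microRNA was not measured.

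The 4 libraries held between 5149 and 8792 cell barcodes and between 139331790 and 179421284 UMIs of genes each. Of 26247 cell barcodes, 22147 passed the filters, 11072 of them carried 1 culture barcode, and 386 barcode sequences among the kept cells occurred in more than 1 library. The epithelial markers EPCAM (31.2 to 365 CPM, counted as a gene's UMIs in every 1000000 UMIs of genes) and KRT18 (751 to 6032 CPM) were detected in all 12 populations, lowest in SBO05, which had the highest level of the mesenchymal filament gene VIM (3306 CPM). The basal keratin genes KRT5 and KRT14 peaked in SBO12 (1787 CPM) and SBO01 (2421 CPM), and the leukocyte gene PTPRC and the endothelial gene PECAM1 stayed at or below 0.0773 and 0.289 CPM. SBO12 rests on the weakest barcode: 782 of its 1227 cells had more UMIs of another barcode, and 3 cells were assigned to it under the strictest rule.

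C15orf48 differed 27.0-fold between populations, with 27.9 CPM in SBO12 and 753 CPM in SBO02. SBO02 had 772 CPM in library 1 and 731 CPM in library 2, and the exact 95% Poisson interval over both was 738 to 768 CPM. SBO03, SBO04 and SBO06 followed with 482, 452 and 420 CPM, and their library values overlapped. Below them came SBO08 with 365 CPM, SBO07 with 315 CPM, SBO11 with 296 CPM, SBO09 with 236 CPM and SBO10 with 190 CPM, of which SBO08 overlapped SBO06 and SBO07 overlapped SBO11. SBO01 with 64.7 CPM, SBO05 with 46.6 CPM and SBO12 with 27.9 CPM stood well below the other 9 populations. SBO12 had 30.6 CPM in library 3 and 25.3 CPM in library 4, and the library values of SBO01 and SBO05 overlapped. The lowest values depend on how strictly cells are assigned: SBO12 had 17.1 CPM over the 445 cells with its own barcode highest, and SBO01 had 32.4 CPM under the strictest rule. C15orf48 was higher in the first library of a pair than in the second in 11 of 12 populations, and NDUFA4 likewise in 11. On the log2(CPM + 1) scale the range of C15orf48 was 4.70, a width that 12 of 6097 genes averaging 20 CPM or more reached, where the median gene had 0.50.

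NDUFA4, which has pseudogene copies whose reads may not have been separated, spread over 0.77 on the same log2 scale, a range that 1469 of the 6097 genes matched or passed. Its order ran against that of C15orf48 at both ends. SBO05 had the most NDUFA4, with 529 CPM (546 and 508 CPM in libraries 1 and 2), followed by SBO12 with 439 CPM and SBO01 with 424 CPM, which are the 3 populations with the least C15orf48. SBO02, highest for C15orf48, had the least NDUFA4, 309 CPM (322 and 293 CPM in libraries 1 and 2). The other 8 populations lay between 327 CPM in SBO06 and 376 CPM in SBO10, most of them with overlapping library values. NDUFA4L2, the remaining paralogue and a gene known for its induction in hypoxia, was nearly absent, with 311 UMIs in all 11072 cells and at most 1.93 CPM in any population.

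UMIs count each captured transcript once from its 5′ end, so transcript length does not enter a ratio of the pair, although capture may differ between transcripts. C15orf48 made up 70.9% of the UMIs of both genes in SBO02 and between 56.2% and 58.5% in SBO03, SBO04 and SBO06. It made up between 33.6% and 49.6% in SBO07 to SBO11, 13.2% in SBO01, 8.11% in SBO05 and 5.97% in SBO12. The median over populations was 47.2%, and the libraries of SBO02 gave 70.5% and 71.4%. The share of the pair spanned an 11.9-fold range, against 27.0-fold for C15orf48 and 1.71-fold for NDUFA4.

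**Figure D1:**
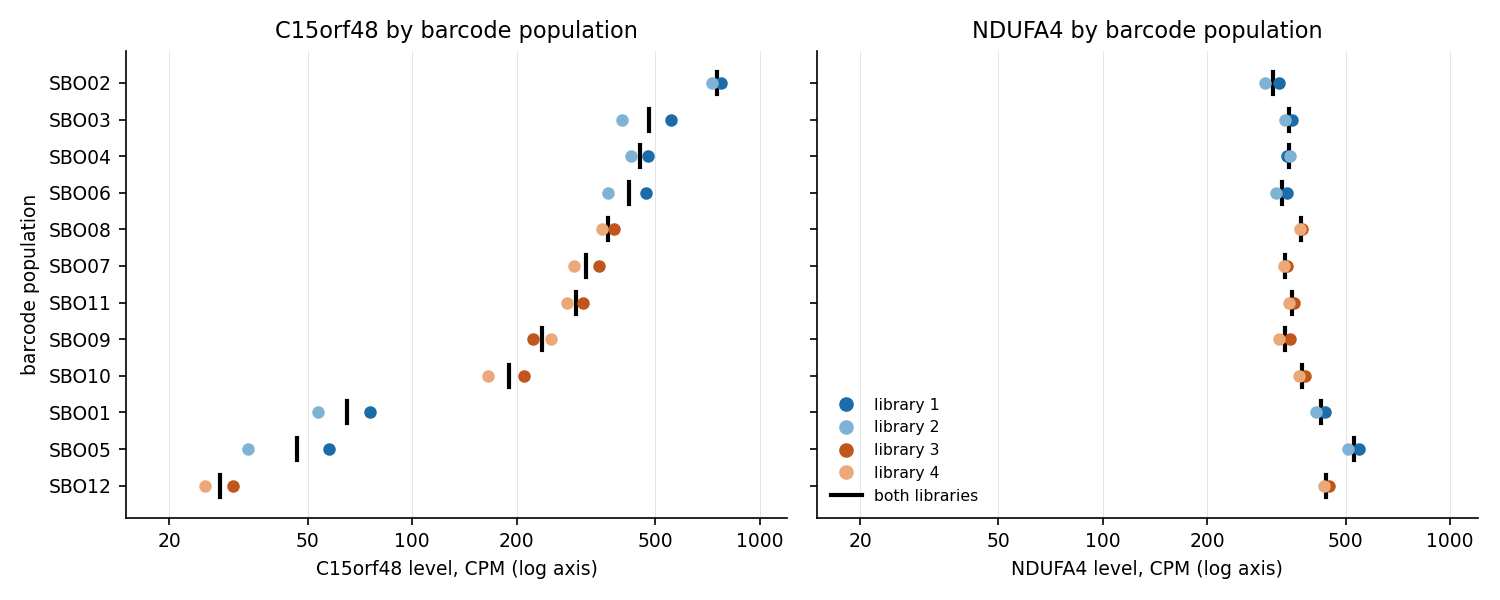
Level of C15orf48 (left) and NDUFA4 (right) in CPM on a log axis for the 12 barcode populations, ordered by C15orf48; points are libraries and black ticks both libraries together. C15orf48 is 753 CPM in SBO02 and 27.9 CPM in SBO12, while NDUFA4 stays between 309 and 529 CPM and is highest in the 3 populations at the bottom.

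The genes whose profile over the 12 populations lay closest to that of C15orf48 were IGFL1, RARRES1, MMP9, ADAM19, KLK7, DHRS3, S100P and FYB1. Likeness was the root mean square difference of centred log2(CPM + 1) values, which was 0.28 for IGFL1 and 0.41 for FYB1, against a median of 1.42 over all genes compared. IGFL1, a secreted growth-factor-like protein gene of epithelia, had 8.06 CPM in SBO12 and 195 CPM in SBO02. RARRES1, a retinoic acid receptor responder, had 3.59 and 134 CPM in the same populations. MMP9, a gelatinase, had 6.90 CPM in SBO05 and 156 CPM in SBO02, and KLK7, a kallikrein protease of shedding squamous epithelium, had 10.5 CPM in SBO12 and 218 CPM in SBO02.

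Cell by cell, C15orf48 was unevenly spread and NDUFA4 was not. Each of 10233 cells with enough depth was thinned to 10000 UMIs, which left out 839 shallower cells. NDUFA4 was seen in 91.9% (SBO02) to 99.1% (SBO05) of the thinned cells of a population, and its variance over cells was 1.25 to 1.69 times its mean. C15orf48 was seen in 72.7% of SBO02 cells (exact 95% binomial interval 68.4% to 76.7%) and in 13.6% of SBO05 cells (12.0% to 15.3%), and its variance was 6.72 to 23.7 times its mean. The intervals cover counting error only. Without thinning, the shares ran from 23.1% in SBO05 to 78.0% in SBO03, at median depths of 20861.5 UMIs per cell in SBO05 to 35406 in SBO12. No population is known to lack the gene, so shares near the lowest one cannot be told apart from free RNA in the droplets.

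Every population held both cells without a C15orf48 UMI and cells with many. In SBO02, 27.3% of thinned cells had none and 23.0% had 11 or more, while in SBO12 85.6% had none and 0.252% had 11 or more. Those in SBO12 were 3 cells, in the population with the weakest barcode, and whether they were assigned wrongly was not tested. The highest single-cell value was 174 UMIs, in SBO03, and the highest in SBO12 was 35. Cells with more C15orf48 than NDUFA4 UMIs made up 49.5% of SBO02 (44.9% to 54.1%), with 48.3% in library 1 and 51.0% in library 2. They made up 38.6% of SBO04, 34.2% of SBO03 and 33.9% of SBO06, and 17.2% to 30.1% of SBO07 to SBO11. In SBO01, SBO12 and SBO05 they were 4.44%, 2.02% and 1.91% of cells. The median cell of SBO02 drew 50% of its UMIs of the pair from C15orf48, and the upper quartile 84.6%.

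**Figure D2:**
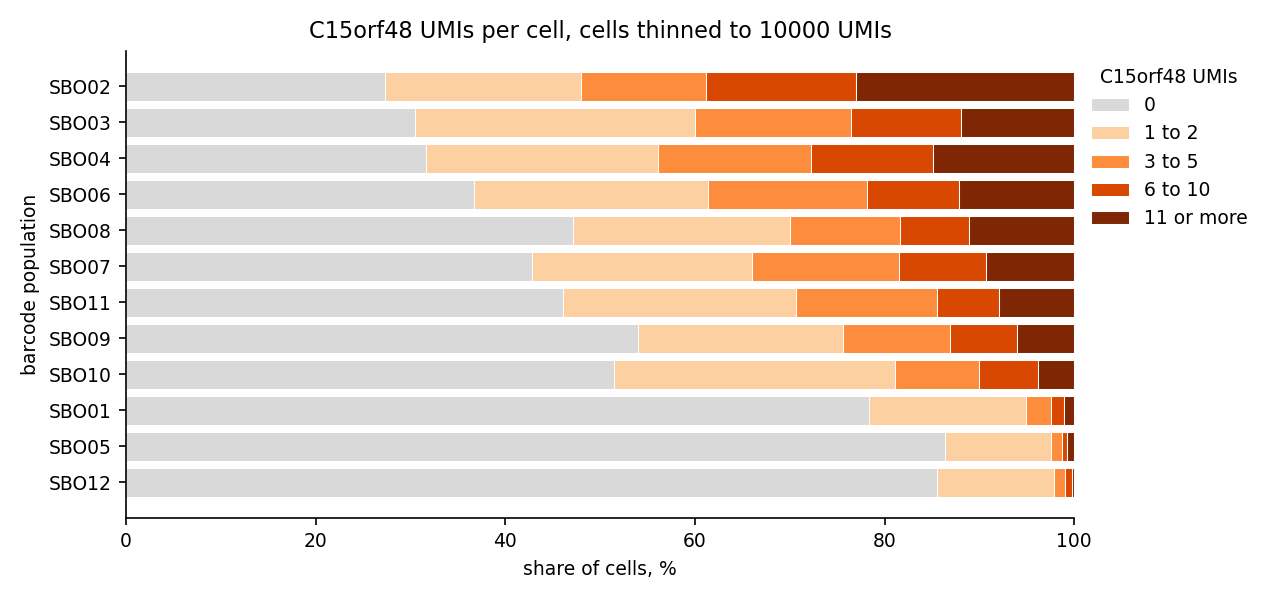
Share of cells (in %) in 5 classes of C15orf48 UMIs per cell for each barcode population, after thinning every cell to 10000 UMIs. The class without a UMI covers 27.3% of cells in SBO02 and 78.4% or more in SBO01, SBO05 and SBO12. Every population has some cells in the highest class, though SBO12, with the weakest barcode, has only 3.

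Within the same cells, NDUFA4 was lower where C15orf48 was higher. Over all populations the mean NDUFA4 count of thinned cells was 4.48 with no C15orf48 UMI, 3.81 with 1 to 2, 3.11 with 3 to 5, 2.79 with 6 to 10 and 2.52 with 11 or more. These classes held 6128, 2005, 874, 574 and 652 cells. The pooled means also carry differences between populations. SBO01, SBO05 and SBO12 supplied 1271, 1491 and 1019 of the cells without a C15orf48 UMI, with NDUFA4 means of 4.38, 5.39 and 4.41. They supplied only 17, 13 and 3 of the cells at 11 or more. Classes with at least 20 cells were compared within each population, and NDUFA4 was lower in the highest such class than in the class without C15orf48 in all 12 populations. In SBO05 and SBO12 that class was only 1 to 2 UMIs, with means of 5.17 against 5.39 and 4.18 against 4.41. The mean fell at every step between such classes in 7 of the 12 populations, SBO05 and SBO12 with their single step among them. In the 8 populations with enough cells at 11 or more UMIs, the mean was 3.67 to 4.40 without C15orf48 and 2.05 to 2.89 in that class. Spearman correlations across the cells of a population ran from -0.38 in SBO02 (469 cells) to -0.07 in SBO12 (1191 cells), a description of cells that share libraries and sparse counts. The median share of mitochondrial UMIs was lower along the classes too, 1.63% without C15orf48 and 1.13% at 11 or more, and its part in the result was not tested.

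**Figure D3:**
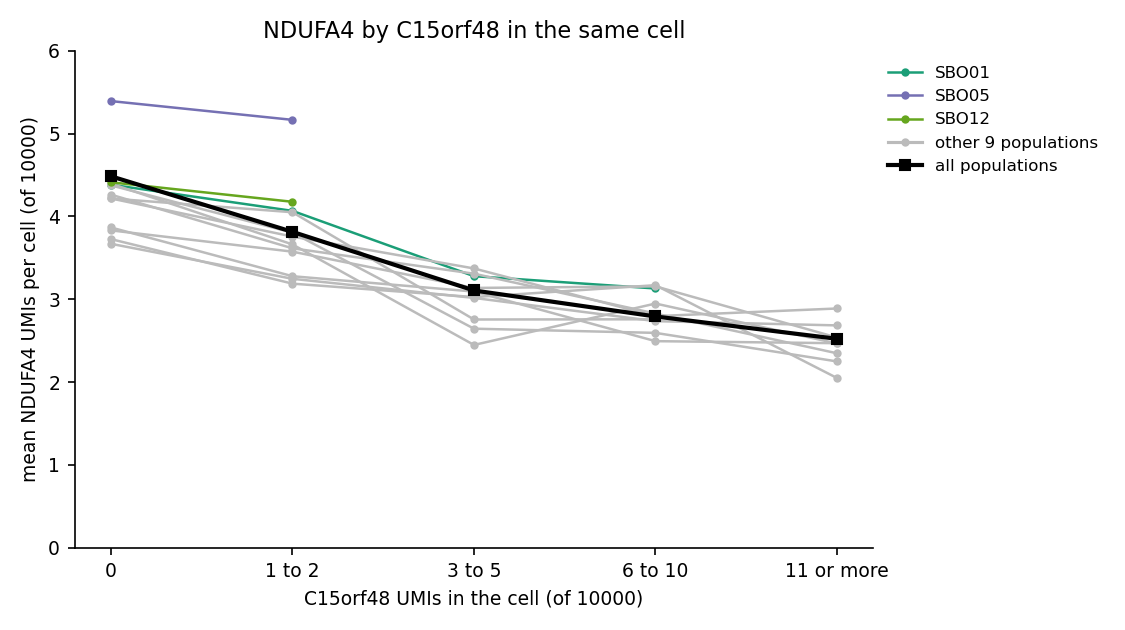
Mean NDUFA4 UMIs per cell against the number of C15orf48 UMIs in the same cell, both from cells thinned to 10000 UMIs; each line is a barcode population and the black line all cells. The black line falls from 4.48 to 2.52, and populations with few C15orf48-rich cells end early because classes under 20 cells are not drawn. Differences between populations also enter the black line, as its classes draw on the populations unequally.

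To test this across libraries, cells were ranked by thinned C15orf48 UMIs within each population of each library and divided into 3 equal tiers, whose unthinned UMIs were summed per library. NDUFA4, which played no part in the ranking, had 381, 359, 338 and 323 CPM in the high tier of libraries 1 to 4, against 471, 432, 417 and 404 CPM in the low tier. It was lower in the high tier of 4 of 4 libraries, 351 ± 25.5 CPM against 431 ± 29.05 CPM (SD, n = 4 libraries), and the ranges of the tiers did not overlap. The log2 fold change was -0.32 ± 0.021 (SE, adjusted p 1.78e-11, edgeR). The libraries of each pool alone gave -0.30 (libraries 1 and 2) and -0.36 (libraries 3 and 4). In this comparison 41.9% of 15315 genes were called and 20.7% of the 15315 were lower in the high tier, so a call by itself is common here. A lower fold change than that of NDUFA4 was seen in 111 of 6063 genes averaging 20 CPM or more.

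The difference was in every population. It was widest in SBO02, where NDUFA4 had 224 CPM in the high tier and 414 CPM in the low tier, with C15orf48 at 1820 and 40.5 CPM. It was narrowest in SBO05, with 510 CPM in the high tier and 545 CPM in the low tier. In SBO05, SBO12 and SBO01 only 40.9%, 43.3% and 65% of the cells in the high tier had a C15orf48 UMI after thinning. Ties among cells without one were broken at random there. In SBO06 to SBO11 no cell of the low tier had such a UMI, against 38.1% to 89.7% in the middle tier. The border of these tiers was therefore also drawn at random among cells without a UMI. Without SBO01, SBO05 and SBO12 the log2 fold change of NDUFA4 was -0.53. The high tier also leaned to the epithelial side of the score described below, with library medians of -0.53 to -0.22 against -0.26 to 0.11 in the low tier. With tiers made within the tiers of that score, NDUFA4 was lower by -0.27 on the log2 scale (adjusted p 2.17e-12). Those tiers still differed somewhat in the score, with means of 0.19 and 0.18 in the high tier and 0.33 and 0.31 in the low tier of libraries 1 and 2, and of -0.40 and -0.39 in the high tier and -0.34 and -0.33 in the low tier of libraries 3 and 4.

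The other nuclear-encoded subunits of complex IV were mostly level or higher where NDUFA4 was lower. Of 15 nuclear-encoded subunits, 11 were expressed enough to test, 7 were higher in the high C15orf48 tier, at a background of 21.3% of genes called higher, and 0 were lower by edgeR, with 0 lower at an unadjusted p under 0.05. COX5A had 849 ± 77.6 CPM in the high tier and 699 ± 70.5 CPM in the low tier (SD, n = 4 libraries), a log2 fold change of 0.26 ± 0.018. COX7A2 was higher by 0.14, COX5B by 0.10, COX6A1 and COX6C by 0.08, COX8A by 0.06, and the rarely detected COX6B2 by 0.60. COX4I1, COX6B1, COX7B and COX7C did not pass the test, with log2 fold changes of -0.02, 0.02, -0.01 and 0.03. With DESeq2 in place of edgeR, 4 nuclear subunits were higher and 1, COX4I1, was lower, and without the library as a block 0 were higher. The fold changes of both methods follow their normalisation and lie below the plain ratios of CPM here. COX4I1 had 957 CPM in the high tier and 956 CPM in the low tier, higher in 2 libraries and lower in 2. COX7B had 365 and 360 CPM, higher in all 4 libraries. The tissue-restricted forms COX4I2, COX6A2, COX7A1 and COX7B2 were at or near 0 in every population.

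Of the 3 subunits encoded by mitochondrial DNA, MT-CO1 and MT-CO3 were lower in the high tier, by -0.16 and -0.22 on the log2 scale, and MT-CO2 had -0.03 (adjusted p 0.213). Without the library block 0 of the 3 were called. MT-CO1 had 4321 CPM in the high tier and 4733 CPM in the low tier. The median share of mitochondrial UMIs was lower in the high tier in every library as well, 1.40% to 1.61% against 1.48% to 1.74%, and its part in these values was not tested. Among 29 assembly factors of complex IV, 5 were higher and 8 lower, with COX14 at 0.16 and COX11 at -0.27, a share called that is near the 41.9% over all genes. Among 37 nuclear subunits of complex I, 8 were higher and 16 lower (0 and 4 without the library block), and the median was -0.04, against 0.005 over all genes tested. NDUFA4L2 had 0.960 CPM in the high tier and 0.954 CPM in the low tier (adjusted p 0.985). NDUFA4 had the lowest fold change of all complex IV subunits tested.

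**Figure D4:**
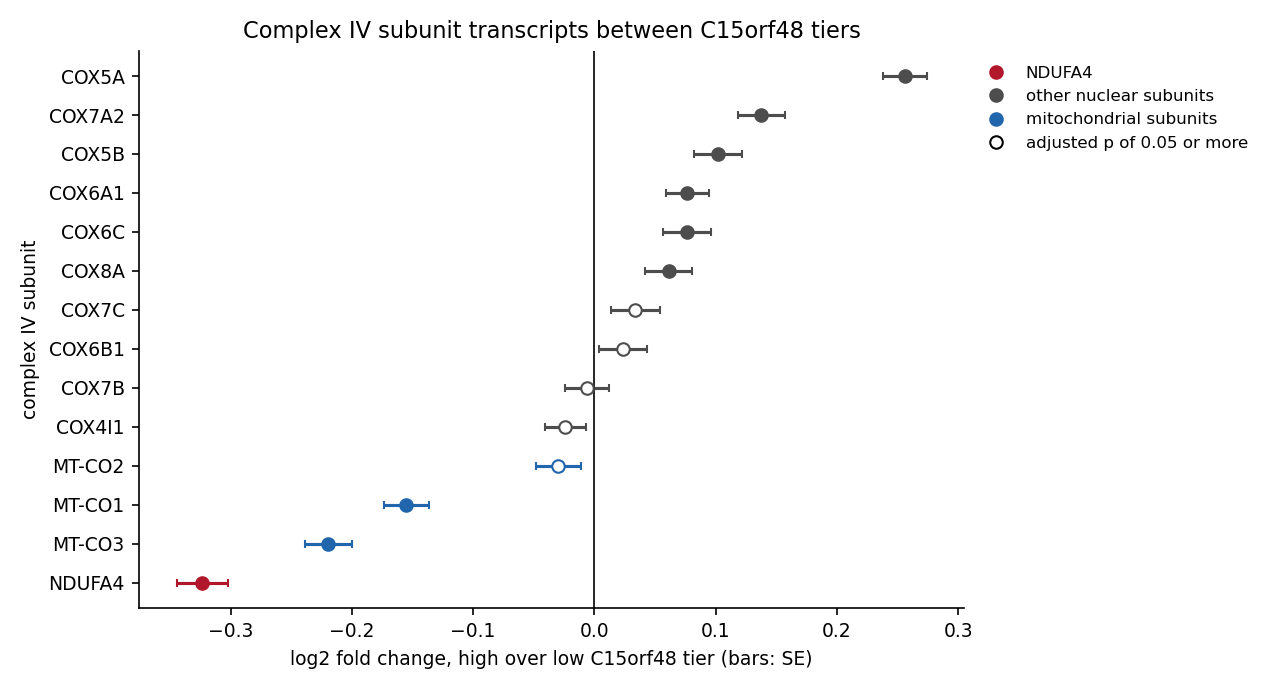
Log2 fold change between the high and the low C15orf48 tier for complex IV subunits averaging 20 CPM or more, with bars for the SE; open points have an adjusted p of 0.05 or more. NDUFA4 sits lowest at -0.32, below MT-CO3 at -0.22 and MT-CO1 at -0.16, while COX5A sits highest at 0.26.

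Cells rich in C15orf48 carried more transcripts of squamous differentiation, interferon response and luminal genes. The gene lists counted here and below were chosen with earlier results of these data known, so their counts are a description. Of 23 tested squamous genes, 22 were higher and 0 lower by edgeR (0 also at an unadjusted p under 0.05 and by DESeq2, and 0 to 1 over 19 alternatives), with a median log2 fold change of 1.56. S100A8, a calcium-binding alarmin, had 71.6 ± 23.8 CPM in the high tier and 14.4 ± 3.53 CPM in the low tier (SD, n = 4 libraries). KLK7 and KLK10 were higher by 2.08 and 1.76 on the log2 scale, and KRT13, a mucosal keratin, by 1.72. All 18 interferon-stimulated genes were higher (median 0.79), where 21.3% of all 15315 genes were called higher and 20.7% lower. IFI27 had 280 ± 65.0 CPM in the high tier and 108 ± 42.2 CPM in the low tier. BST2 and HERC5 were higher by 1.43 and 1.14.

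For the lists that follow, 21.3% of all genes tested were called higher and 20.7% lower. Of 24 NF-κB targets, 15 were higher and 0 lower by edgeR, with a median of 0.41. At an unadjusted p under 0.05 and by DESeq2, 0 were lower as well. Over 19 alternatives 0 to 3 of the NF-κB targets were lower, with 3 lower without library 1, in libraries 3 and 4 alone and with no gene filter. The lowest member, CCL20, named after its value was seen, had -1.03 and did not pass the test. LCN2, an iron-chelating secreted protein, had 235 ± 58.9 CPM in the high tier and 54.6 ± 11.1 CPM in the low tier. IL32, C3 and CXCL1 were higher by 1.40, 0.93 and 0.66. All 9 tested luminal markers, some of them also epithelial score genes, were higher (5 without the library block), with SLPI, a secreted antiprotease, at 1.69, CD24 at 0.69, ALDH1A3 at 0.63 and ELF3 at 0.62. Of 12 basal markers, 8 were lower (2 without the library block), among them KRT5 at -0.45, COL17A1 at -0.43 and ITGB4 at -0.40, and 4 were higher, with LAMA3 at 0.50.

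Of the 14 hypoxia genes, 2 were higher and 5 lower, including BNIP3, a mitophagy receptor, at -0.31, P4HA1 at -0.09 and SLC2A1, a glucose transporter, at 0.14. Of the 12 epithelial score genes 11 were higher (6 without the library block), led by CLDN4 at 1.35, OCLN at 0.91 and CLDN7 at 0.86. Of the 12 mesenchymal score genes 9 were lower (5 by DESeq2 or without library 1, 2 with tiers made within score tiers, 2 of 7 tested in libraries 3 and 4 alone, where 2 were higher, and 0 without the library block), including VIM at -0.71 and SPARC at -0.23, and 1 was higher, FN1, which encodes fibronectin, with 1466 ± 271 CPM in the high tier and 985 ± 191 CPM in the low tier. Over all 15315 genes, 3261 were higher and 3163 lower. Leukocyte markers (10 listed) summed to 21.9 to 30.5 CPM in the high tier and 12.98 to 24.0 CPM in the low tier, with 3 of 3 tested members higher and PTPRC at or below 0.0749 CPM in every tier. Endothelial markers summed to 2.10 to 2.63 CPM in the high tier and 0.840 to 1.05 CPM in the low tier, with 2 of 2 tested members higher and PECAM1 at or below 0.201 CPM. Their part in the other values was not tested.

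The 10 widest rises among genes averaging 20 CPM or more, with the same direction in all 4 libraries were IGFL1 (3.26), RARRES1 (2.47), S100A8 (2.28), SAA2 (2.26), KLK7 (2.08), LCN2 (2.07), MMP9 (1.94), LMTK3 (1.89), TINCR (1.81) and KLK10 (1.76). SAA2 is an acute-phase serum amyloid gene, and TINCR encodes an RNA needed for epidermal differentiation. IGFL1 had 136 ± 18.6 CPM in the high tier and 14.1 ± 3.13 CPM in the low tier. The falls were shallower. TNFRSF6B, a decoy receptor, had 61.5 ± 5.91 CPM in the high tier and 112 ± 20.2 CPM in the low tier, a log2 fold change of -0.88. The others were CCBE1 (-0.73), VIM (-0.71), the Wnt antagonist DKK1 (-0.68), CCN2 and the caveolar gene CAV1 (both -0.65), BASP1 (-0.63), TIMP3 and the actin bundler FSCN1 (both -0.62) and NNMT (-0.60).

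The same relation in the same cells was also read from the side of NDUFA4, which is no independent support for it. Cells were ranked by thinned NDUFA4 UMIs, and C15orf48 had 160, 121, 139 and 149 CPM in the high tier of libraries 1 to 4, against 432, 298, 338 and 300 CPM in the low tier. The tiers did not overlap, with 142 ± 16.2 CPM in the high tier and 342 ± 62.8 CPM in the low tier (SD, n = 4 libraries). The log2 fold change was -1.21 ± 0.067 (adjusted p 5.18e-13, edgeR), where 8.27% of 15307 genes were called lower. It was the lowest of 6064 genes averaging 20 CPM or more. Complex IV and complex I leaned the other way: 8 of 11 tested nuclear subunits of complex IV, all 3 mitochondrial ones and 27 of 37 nuclear subunits of complex I were higher in the high NDUFA4 tier, and 0 members of these 3 lists were lower, at an unadjusted p under 0.05 or by DESeq2 either, where 10.8% of genes were called higher. Without the library block these counts were 0 of 11, 0 of 3 and 1 of 37, and thinned counts called 1 of 3 mitochondrial subunits. With populations in place of libraries as units, 1 nuclear subunit of complex IV was lower. NDUFB6 was higher by 0.20, COX6B1 by 0.14, COX7B and MT-CO3 by 0.13 and COX6C by 0.12. These fold changes follow the normalisation of edgeR and lie above the plain ratios of CPM. COX5B, not called, had 0.03 at 420 CPM in the high tier and 425 CPM in the low tier. MT-CO1 had 4645 and 4600 CPM and COX7C 583 and 575 CPM in these tiers, both higher in 3 of 4 libraries. The other called complex IV subunits were higher in every library. KLK7, KRT13, S100A8 and LCN2 were lower, by -0.97, -0.95, -0.71 and -0.63.

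Between tiers of a mesenchymal minus epithelial score, the genes differed in opposite directions. Each cell was scored by 12 mesenchymal genes, mean standardised level, less the same mean of 12 epithelial genes, neither member among them, and cells were divided into 3 tiers by this score within each population and library. A high score can come from higher mesenchymal genes, lower epithelial genes or both, and these were not separated. In libraries 1 to 4, C15orf48 had 158, 112, 97.9 and 93.7 CPM in the high tier. In the low tier it had 425, 329, 364 and 316 CPM. NDUFA4 had 466, 427, 420 and 405 CPM in the high tier, against 390, 369, 345 and 342 CPM in the low tier. Neither gene's tiers overlapped.

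The log2 fold change of C15orf48 was -1.63 ± 0.061 (adjusted p 1.25e-13, edgeR), with means of 116 ± 29.7 CPM in the high tier and 363 ± 49.2 CPM in the low tier (SD, n = 4 libraries). That of NDUFA4 was 0.27 ± 0.019 (adjusted p 1.50e-09), with 433 ± 25.9 CPM in the high tier and 366 ± 22.3 CPM in the low tier. Of 15235 genes, 35.7% were called, 19.1% higher and 16.6% lower. Among 6081 genes averaging 20 CPM or more, 5 had a lower fold change than C15orf48 and 240 a higher one than NDUFA4. C15orf48 was lower in the high tier in all 12 populations, and NDUFA4 was higher in all 12. The difference of C15orf48 between score tiers was wider in libraries 3 and 4 than in libraries 1 and 2, with log2 fold changes of -1.81 and -1.47. A test of the difference between pools gave -0.33 ± 0.079 (adjusted p 0.0192, 359 of 15235 genes called), and without library 3 it gave -0.27 (adjusted p 0.209). For NDUFA4 the pools gave 0.28 in libraries 3 and 4 and 0.24 in libraries 1 and 2, a difference of 0.04 ± 0.036 (adjusted p 0.666).

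With score tiers made within the tiers of C15orf48, C15orf48 was lower by -0.52 (adjusted p 1.92e-08), so these tiers still differed in it, and NDUFA4 was higher by 0.19 (adjusted p 8.16e-07).

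Between score tiers 19.1% of all 15235 genes were called higher and 16.6% lower, so a call by itself is common here. Among the 11 tested nuclear subunits of complex IV, 2 were higher in the high score tier (COX7B at 0.06 and COX8A at 0.07). Of the same 11, 3 were lower (COX5A at -0.09, COX6A1 at -0.11 and the rarely detected COX6B2 at -0.51). Of the mitochondrial subunits MT-CO2 was lower by -0.10. Without the library block 0 of these complex IV subunits were called. Of 37 nuclear subunits of complex I, 17 were higher and 1 lower (1 and 0 without the library block), with NDUFS4 at 0.30 and NDUFB6 at 0.15. The squamous genes KRT13 and KLK7 were lower in the high tier by -2.68 and -2.18, LCN2 by -1.47 and SLPI by -1.18, and 16 of 18 interferon-stimulated genes were lower (7 without the library block). Basal markers were higher in 9 of 12 cases (4 without the library block), with COL17A1 at 0.58. All 5 tested luminal markers were lower. CXCL1 was higher by 0.66 in this comparison, as it was in the high C15orf48 tier.

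**Figure D5:**
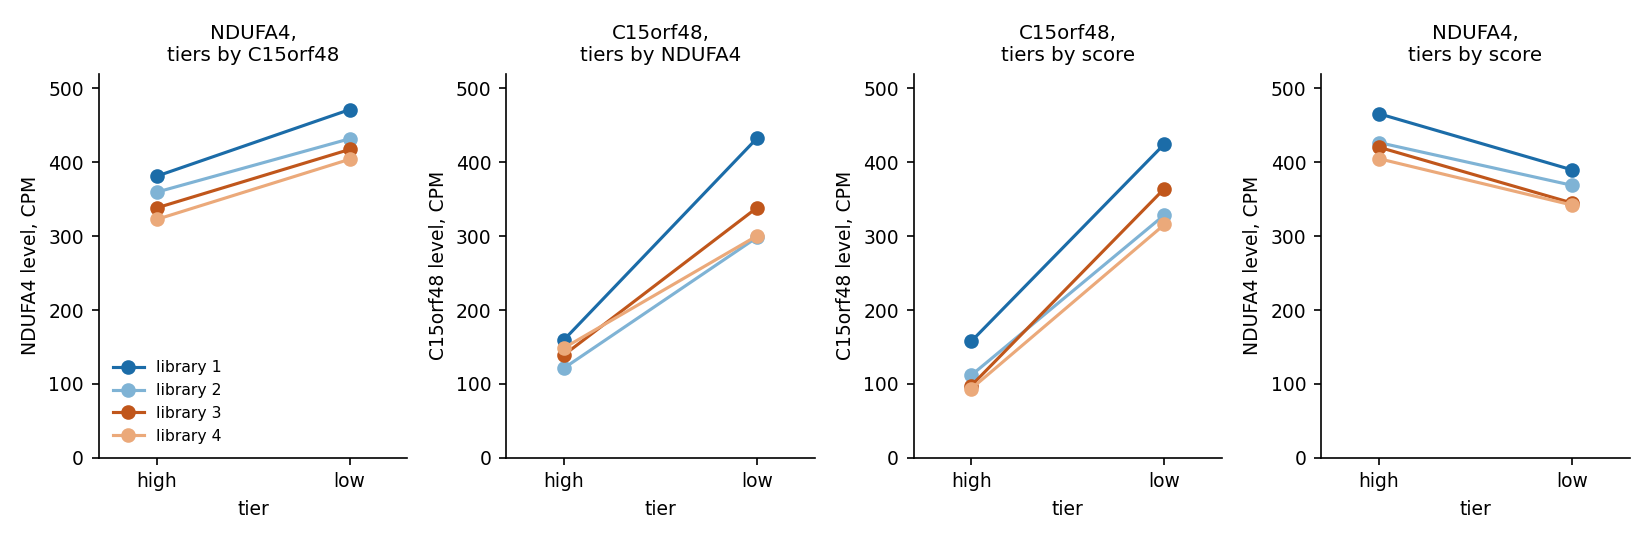
Level in CPM of NDUFA4 or C15orf48 in the high and the low tier of each library (lines), with cells ranked by C15orf48, by NDUFA4 or by the mesenchymal minus epithelial score. NDUFA4 is lower in high C15orf48 tiers, C15orf48 is lower in high NDUFA4 tiers, and along the score C15orf48 is lower and NDUFA4 higher in the high tier, in all 4 libraries.

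Genes that share the seed match of NDUFA4 were looked at as a class. Of 13191 genes tested between the C15orf48 tiers that have an annotated 3′ UTR, 411 hold CCGCACA in it. In this class 17.5% were lower in the high C15orf48 tier and the median log2 fold change was 0.02, against 23.1% and -0.004 over all 13191 genes. A match to these 7 letters is a description, and says nothing about use of the site.

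The start regions differ in base composition. In the 300 bases from 250 before to 50 after the RefSeq start (GRCh38.p14), C15orf48 had 73.3% G and C and 45 CpG pairs and NDUFA4 had 50.7% and 10, against medians of 58.3% and 14 over 27305 human promoters. A search of both strands for the pattern of 4 guanine runs that can fold into a G-quadruplex and for the kappaB consensus found none in either window. These occur in 24.1% and 14.7% of the promoters. TATAA, which 21.1% hold, occurred in the C15orf48 window only, on its own strand.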

How the data were processed

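Single-cell data of 4 libraries were used as deposited: the authors' UMI counts per gene and cell and, for the barcode libraries, counts per barcode, made with Cell Ranger 6.0.2 on hg38 per the submitters' processing notes, which also name bcl2fastq 2.20.0.422 and Seurat 4.1.0. The annotation release and the handling of reads that map to several places were not stated in the sources used here. The members and gene lists were chosen with earlier results of these data known.

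Cells were kept from 1000 genes up and to 15% mitochondrial UMIs, and barcodes were assigned with HTODemux (Seurat 5.3.0, R 4.3.3, quantile 0.99) among barcodes highest in at least 1% of cells. Cells with several barcodes were dropped as doublets and no other doublet caller was run, so doublets within a culture remain. Levels are CPM, a gene's UMIs in every 1000000 gene UMIs of the same cells, with exact Poisson intervals. Values per cell were thinned to 10000 UMIs. Median depth per library was 22198.5 to 38051 UMIs per cell.

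Cells were split into 3 tiers within each library and population, unthinned counts were summed per library and tier, and high was tested against low with edgeR 4.0.16 (quasi-likelihood, Benjamini-Hochberg adjustment over all genes, threshold 0.05, library as a block). The ranking gene, or the score's genes, were left out of their own fit. The tiers of a library are cells of the same preparation, which is why it entered as a block. Named genes are the members, the complex IV lists, up to 4 called members of each other list by size of fold change, the 10 widest rises and falls at a mean of at least 20 CPM, and the 8 profiles nearest to C15orf48. On simulated counts, 100 of 100 genes changed by 0.25 on the log2 scale were recovered for the C15orf48 tiers (15315 genes), with 6 false calls. The changed genes averaged 20 CPM or more, and all genes shared 1 dispersion without differences between libraries. The simulation is therefore simpler than the data. Alternatives were DESeq2 1.42.0, no gene filter, no block, other assignments and cell filters, thinned counts, left-out libraries or populations, and tiers within strata.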

Additional observations from a re-analysis of the deposited data

Results flagged for a closer look

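C15orf48 differed more between score tiers in the pool of libraries 3 and 4 than in the pool of libraries 1 and 2, with an interaction of -0.33 on the log2 scale (SE 0.079, adjusted p 0.0192, edgeR). Libraries 3 and 4 had 97.9 and 93.7 CPM in the high tier, against 364 and 316 CPM in the low tier, and libraries 1 and 2 had 158 and 112 CPM in the high tier, against 425 and 329 CPM in the low tier. Without library 3 the interaction was -0.27 with an adjusted p of 0.209. The pools hold different cultures, so pool and culture cannot be told apart.

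C15orf48 was also read in cells that entered no comparison. The 5565 kept cells with no assigned barcode had 376 CPM (NDUFA4 349 CPM), and 31.3% of the thinned ones had more C15orf48 than NDUFA4 UMIs. The 5510 cells with several barcodes had 234 CPM (NDUFA4 414 CPM), and 19.1% had more C15orf48. Both values lie within the range of the 12 assigned populations.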

How the results depend on the processing

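Between tiers, C15orf48 and NDUFA4 kept their direction and stayed past the threshold under all 19 alternatives: NDUFA4 between C15orf48 tiers -0.53 to -0.27, C15orf48 between NDUFA4 tiers -1.34 to -0.98, and between score tiers C15orf48 -1.91 to -0.52 and NDUFA4 0.19 to 0.39. Without the library as replicate block, the adjusted p of NDUFA4 between C15orf48 tiers was 0.00158 and called genes numbered 2318 for the C15orf48 tiers (6424 with it) and 1478 for the score tiers (5438 with it). Thinned counts called 3675 and 3215 genes, over 13248 and 13210 tested, and DESeq2 called 3529 for the score tiers. Leaving out 1 library left 5386 to 5716 and 4420 to 4564.

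The log2 range of C15orf48 over populations (4.70; 4.57 to 4.84 without 1 library) was 5.66 with the top-barcode rule, 5.47 with cells whose own barcode was highest and 5.09 with the strict rule, the last 2 chosen after seeing the data. That of NDUFA4 (0.77; 0.76 to 0.79) was 0.79 with no mitochondrial limit, 0.81 with own barcode highest and 1.09 with the strict rule. Under the strict rule SBO12 held 3 cells, which entered both ranges but were too few to enter the cell share that follows. The median share of cells with more C15orf48 (25.6%; 25.3% to 25.8%) was 22.4% with the top-barcode rule, 26.6% with no mitochondrial limit, 26.5% at 2000 genes, and 24.5% with own barcode highest and with the strict rule. The cause was not tested.

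Alternatives for the pool differences were all chosen after seeing the data. SBO12 held 98 cells under the top-barcode rule and 3 under the strict rule. These rules therefore overlap with leaving out SBO12 and are not separate from it. For NDUFA4 between C15orf48 tiers (-0.05; -0.06 to -0.04 without 1 library) the difference was -0.17 (top barcode), -0.25 (strict) and -0.14 (without SBO12), all past the threshold, and it reversed to 0.036 without SBO05 and 0.16 without SBO01, SBO05 and SBO12. For NDUFA4 between score tiers (0.04; 0.01 to 0.06) it was 0.19 (top barcode) and 0.23 (strict), past the threshold, and reversed to -0.057 and -0.12 without the same populations. For C15orf48 between score tiers (-0.40 to -0.27 without 1 library) it missed the threshold without library 3, at -0.27, and was -0.64 (top barcode), -0.99 (strict) and -0.56 (without SBO01, SBO05 and SBO12), past the threshold. The cause was not tested.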

Other observations

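Between NDUFA4 tiers, 14 of 18 interferon-stimulated genes and 14 of 24 NF-κB targets were lower in the high tier (edgeR), where 8.27% of all genes were. DESeq2 called 5 and 6 lower, and edgeR without the library block called 3 and 0. Of 23 tested squamous genes, 14 were lower and 1 higher, and without the block 3 and 0. VIM had 685 ± 548 CPM in the high NDUFA4 tier and 532 ± 465 CPM in the low tier (SD, n = 4 libraries), a log2 fold change of 0.51 with the same direction in 4 of 4 libraries. Of 24 NF-κB targets, 10 were higher and 6 lower between score tiers, against 19.1% and 16.6% of all genes, with CXCL1 higher by 0.66 and LCN2 lower by -1.47.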
